A study of Mus musculus with 12 samples.

Results

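The effect of blocking the fibroblast growth factor (FGF) receptors was measured in Ocy454, an osteocyte-like line of mouse cells, to which no FGF2 had been added. The members are the 3 libraries whose titles give BGJ398 with control medium and the 3 whose titles give DMSO with control medium, 6 of the 12 libraries of the series. BGJ398 is a drug-like compound that blocks the kinase activity of FGF receptors, and DMSO is its vehicle. Cells were grown to confluence in medium with fetal bovine serum, differentiated for 5 days at a raised temperature, exposed for 1 h to BGJ398 at 200 nM or to DMSO, and kept for 48 h in treatment medium before lysis on differentiation day 7. The other 6 libraries received the same pretreatments and then 2 ng/mL FGF2. They are part of the same statistical model and so bear on its p-values. Their levels serve only to set the same genes side by side. The labels describe triplicates without saying whether these were separate cultures, so all p-values measure the spread between libraries, which may be technical.

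FGFs bind receptor tyrosine kinases together with heparan sulfate and activate, among other routes, the Ras and ERK kinase cascade. ERK signalling induces transcription factors of the ETS family and a set of its own inhibitors, the Sprouty and Spred proteins and the dual-specificity phosphatases, whose transcripts are widely used as readouts of receptor activity. In bone, FGF receptors are active in osteoblasts and osteocytes, where FGF signalling bears on proliferation, matrix production, mineralization and phosphate balance.

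Depth was 19723449 to 27716975 reads in the 6 libraries, and mitochondrially encoded genes took 1.70% to 1.92% of the reads. Levels of single genes are read counts scaled to a common library total, after TMM adjustment of the totals (CPM). They are not corrected for gene length. Summed levels of gene lists use the library totals without that adjustment. On the first principal component of the 6 libraries, which held 29.0% of the variance, the DMSO libraries lay between −18.9 and −11.4 and the BGJ398 libraries between 8.13 and 21.5. BGJ398 replicate 1 stood apart within its group: its counts differed from those of replicates 2 and 3 by 12.1 and 14.6 times the Poisson expectation, against 3.24 between replicates 2 and 3 and 5.19 to 6.10 among the DMSO libraries. For lists with a call, the calls are therefore also given without it.

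The cells carried transcripts of osteoblasts, while several late osteocyte genes had few or no reads. Col1a1, which encodes the main collagen chain of bone, ranged from 9111 to 9829 CPM in DMSO, and the bone transcription factor Runx2 from 118 to 129 CPM. The osteocyte genes Sost, Mepe and Dkk1 had 0 reads in all 6 libraries, Dmp1 had 15 and Fgf23 had 4. Of the 24 osteocyte genes listed, 16 had enough reads to test, and the list summed to 1759 to 1806 CPM in DMSO. Of the receptors, Fgfr1 averaged 251 CPM in DMSO (106 TPM, a scale that is corrected for length), Fgfr2 118 CPM (75.0 TPM) and Fgfr3 28.9 CPM (13.9 TPM), while Fgfr4 had 4 reads and the FGF23 co-receptor gene Kl had 0 reads in the 6 libraries. Of the markers of other cell types, Adipoq, Myod1, Pax7, Adgre1, Cldn5, Epcam and Krt5 had 0 reads. None of the tested members of the adipocyte, chondrocyte, muscle, tendon, macrophage, endothelial and epithelial lists passed the test with edgeR, DESeq2 or limma-voom, and their part in the results below was not tested. Of 13 adipocyte markers 4 had enough reads to test and 6 had none, with a summed level of 25.6 to 26.6 CPM in DMSO and 21.4 to 25.3 CPM in BGJ398. All 15 chondrocyte markers had reads in the 6 libraries, and 6 had enough to test. Their summed level was 44.9 to 46.8 CPM in DMSO and 45.3 to 47.6 CPM in BGJ398. The 7 tendon markers, of which 4 were tested and Tnmd, Thbs4 and Kera had 0 reads, summed to 2195 to 2219 CPM in DMSO and 2308 to 2396 CPM in BGJ398, most of it the proteoglycan gene Fmod.

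The comparison asks what the inhibitor changes when no FGF2 is added. The changes past the test were small in size, and their number depended on the fit. Of 12542 genes tested, 44 passed an adjusted p of 0.05 (0.351%), 20 higher (0.159%) and 24 lower (0.191%) with BGJ398. Lower genes included feedback and target genes of ERK signalling and enzymes of cholesterol synthesis, and higher genes included the bone genes Alpl, Smpd3 and Pth1r and secreted regulators of IGF and BMP signalling. The median size of the change among the 44 was 0.45 on the log2 scale, or 1.37-fold, and 2 genes changed at least 2-fold, Smpd3 and the pseudogene Gm10221. The BGJ398 and DMSO libraries did not overlap in any of the 44, as in 17.2% of all genes. The median log2 fold change of all genes was 0.00.

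The count moved with the libraries and with the counting. It was 29 without BGJ398 replicate 1, of which 21 were among the 44. It was 14 without BGJ398 replicate 2, 11 without BGJ398 replicate 3, and 14, 9 and 9 without DMSO replicates 1, 2 and 3. With gene counts rebuilt from TPM and gene length, 12 genes passed, 10 of them among the 44. Other settings gave more: 61 genes passed without a filter on low counts, 101 with only the 6 libraries in the fit, and 153 with DESeq2. Without BGJ398 replicate 1, DMSO+FGF2 replicate 2 and BGJ398+FGF2 replicate 2, which deviated together and were chosen after seeing the data, 925 passed. The deviations of these libraries from their group means correlated only weakly, at 0.172, 0.178 and 0.239. Another pair, DMSO+FGF2 replicate 3 and BGJ398+FGF2 replicate 1, had 0.179. No named gene past the test changed sign in any of the 15 other settings. In bulk RNA, fewer cells of a kind and less RNA per cell cannot be told apart, which holds for every level given here.

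Among FGF and ERK feedback and target genes, 5 of 30 tested genes fell and 0 rose with BGJ398, against 0.191% and 0.159% of all genes. Etv5 (ENSMUSG00000013089), an ETS transcription factor induced by FGF signalling, stood at 17.8, 14.8 and 15.4 CPM in the DMSO libraries and at 9.63, 10.6 and 9.70 CPM in the BGJ398 libraries. All BGJ398 values lay below all DMSO values, and the gene fell by 0.68 ± 0.10 on the log2 scale (SE), 1.60-fold (adjusted p = 0.0086). Of the 31-base sequences of Etv5, 30.3% also occur in other genes, so its counts are less certain.

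The Spred proteins are membrane-bound inhibitors of the Ras and ERK cascade, and 2 of its 3 genes fell. Spred2 (ENSMUSG00000045671) had 54.7, 51.9 and 55.0 CPM in DMSO and 36.8, 43.9 and 38.5 CPM with BGJ398, a log2 fold change of −0.44 ± 0.08 (adjusted p = 0.0331). Spred1 (ENSMUSG00000027351) had 96.3, 100.3 and 94.2 CPM in DMSO and 75.3, 76.5 and 76.9 CPM with BGJ398, a log2 fold change of −0.35 ± 0.06 (adjusted p = 0.0331). The BGJ398 libraries of Spred1 lay within 2 CPM of each other and all below the DMSO libraries. Spred3 had a log2 fold change of −0.19 ± 0.16 and did not pass the test.

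The other members past the test were Hmga2 and Epha2. Hmga2 (ENSMUSG00000056758), a chromatin protein of growing cells, had 27.66, 27.99 and 28.07 CPM in DMSO and 18.3, 20.5 and 22.6 CPM with BGJ398, and fell by 0.45 ± 0.08 on the log2 scale (adjusted p = 0.0208). Epha2 (ENSMUSG00000006445), an ephrin receptor whose gene responds to Ras and ERK signalling, had 62.7, 58.7 and 57.0 CPM in DMSO and 49.6, 45.2 and 45.1 CPM with BGJ398, a log2 fold change of −0.35 ± 0.06 (adjusted p = 0.0295). In neither gene did the groups overlap.

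Several widely used readouts of FGF receptor activity had all BGJ398 libraries below all DMSO libraries but did not pass the test over all genes. Dusp6, the phosphatase that inactivates ERK, had 24.5, 18.7 and 17.6 CPM in DMSO and 16.4, 13.5 and 14.7 CPM with BGJ398, a log2 fold change of −0.44 ± 0.13 (adjusted p = 0.245). Its DMSO value was highest in replicate 1. Spry1, a Sprouty feedback inhibitor, had 48.7, 50.4 and 46.8 CPM against 40.5, 39.3 and 37.5 CPM, a log2 fold change of −0.31 ± 0.07 (adjusted p = 0.0951). Spry2 had −0.33 ± 0.13 and the phosphatase gene Dusp4 −0.45 ± 0.16. Spry4 had only 95 reads over the 6 libraries and a log2 fold change of −1.14 ± 0.37 (adjusted p = 0.329), and the ETS factor Etv4 had 465 reads and a log2 fold change of −0.73 ± 0.23 (adjusted p = 0.287). For Il17rd, an inhibitor of FGF signalling, the groups overlapped (−0.20 ± 0.09).

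Over the whole list, 16 of 30 genes (53.3%) had BGJ398 libraries that all lay below the DMSO libraries, against 8.08% of all genes, and the list's median log2 fold change was −0.21. Of those 16, 11 did not pass the test. In 5 of the 30 (16.7%) all BGJ398 libraries lay above the DMSO libraries, against 9.11% of all genes. The early response genes lay on both sides and none passed the test. Fos stood at 0.45 ± 0.10 (adjusted p = 0.0951), Nr4a1 at 0.28 ± 0.11, Myc at 0.19 ± 0.05, Fosl2 at 0.16 ± 0.07 and Egr1 at 0.13 ± 0.08, each with all BGJ398 libraries above the DMSO libraries. Fosl1, of the Fos family, stood at −0.59 ± 0.14 (adjusted p = 0.113) with all BGJ398 libraries below them. Without BGJ398 replicate 1, 2 members of the list passed the test as lower. Without each of the DMSO replicates or BGJ398 replicate 3 the count was 1, without BGJ398 replicate 2 it was 2, and with counts rebuilt from TPM it was 0. With only the 6 libraries in the fit 6 passed as lower, with DESeq2 7 as lower and 1, Fos, as higher. Without the 3 libraries that deviated together, 10 passed as lower and 3, Fos, Fosl2 and Myc, as higher.

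**Figure D1:**
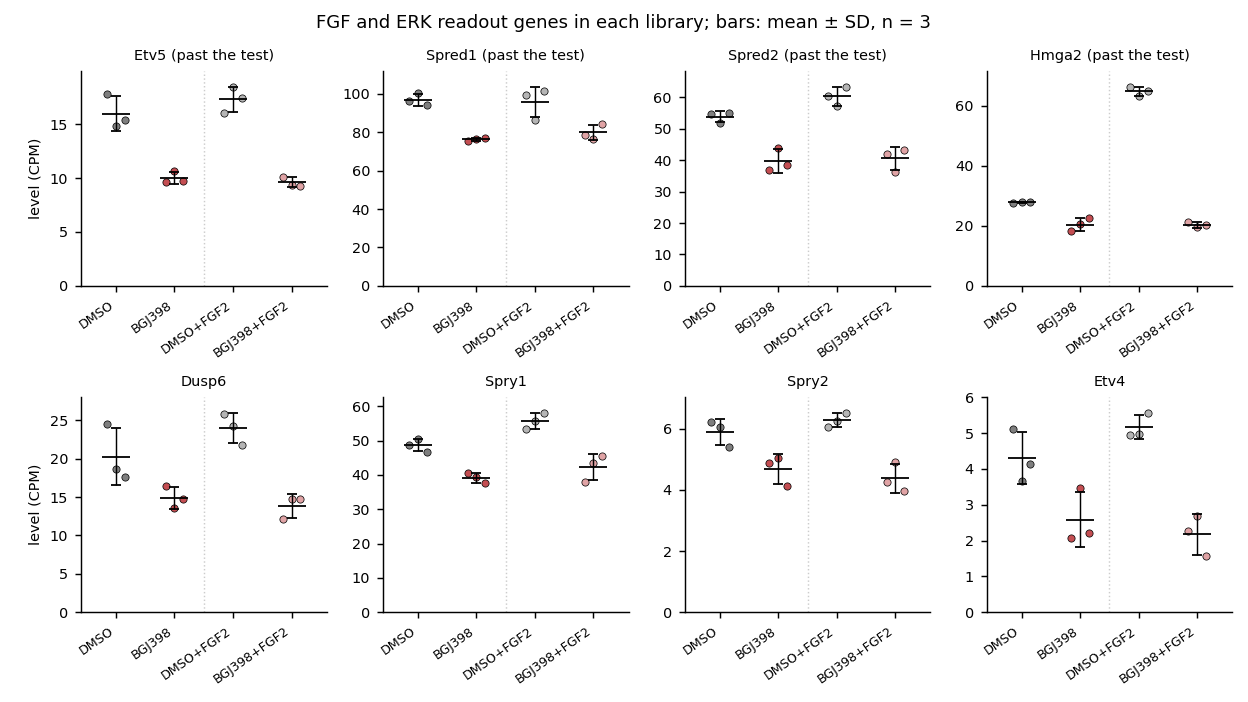
Levels in CPM (vertical axes, from 0) of 8 FGF and ERK readout genes in each library of the 4 groups, with the mean and SD of 3 libraries as bars. In the 2 groups left of the dotted line, which had no FGF2, every BGJ398 point lies below every DMSO point; Etv5, Spred1, Spred2 and Hmga2 passed the test there, and Dusp6, Spry1, Spry2 and Etv4 did not.

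Genes of FGF receptors and ligands did not pass the test in the main fit. Of 15 tested FGF receptor, ligand and co-receptor genes, 0 passed edgeR's test, and their median log2 fold change was −0.09. At an unadjusted p under 0.05 there were 7 of the 15, against 995 of all 12542 genes (7.93%). In 4 (26.7%) all BGJ398 libraries lay above all DMSO libraries, against 9.11% of all genes, and in 5 (33.3%) all lay below, against 8.08%. With limma-voom 0 passed, and with DESeq2 1, Fgf7, passed as lower. Over the 15 other settings, Fgf7 passed in 5, Fgfr2 in 2 and Frs2 in 1. Fgfr1 had 249, 244 and 262 CPM in DMSO and 231, 237 and 241 CPM with BGJ398, a log2 fold change of −0.09 ± 0.06. Fgfr2 had 120, 118 and 117 CPM in DMSO and 141, 134 and 141 CPM with BGJ398, a log2 fold change of 0.23 ± 0.07 (adjusted p = 0.254). Fgfr3 was level, with 0.00 ± 0.10. Among the ligands that the cells themselves expressed, Fgf7 had −0.40 ± 0.09 (adjusted p = 0.0951), Fgf2 −0.39 ± 0.17 (adjusted p = 0.58) and Fgf18 0.38 ± 0.21 (adjusted p = 0.719). Frs2, the adaptor that couples the receptors to Ras, had 0.27 ± 0.10 (adjusted p = 0.43).

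Genes of cholesterol synthesis formed the largest group past the test. Cells make cholesterol through the mevalonate pathway, and the transcription factor SREBP2 switches its enzymes on when membrane sterol is low. Of 33 tested genes of cholesterol and fatty acid synthesis, 6 fell and 0 rose with BGJ398, against 0.191% and 0.159% of all genes. In 22 of the 33 (66.7%) all BGJ398 libraries lay below all DMSO libraries, against 8.08% of all genes. The median log2 fold change of the list was −0.20, and 32 of 33 values were below 0. Without BGJ398 replicate 1, 5 members passed the test. Without DMSO replicate 1 the count was 3, without BGJ398 replicate 3 or with counts rebuilt from TPM it was 1, and without DMSO replicate 2, DMSO replicate 3 or BGJ398 replicate 2 it was 0. Other settings gave more, with 8 lower without a filter on low counts, 10 with only the 6 libraries in the fit, 12 with DESeq2 and 19 without the 3 libraries that deviated together. In each of these 4 settings 1 member, Ebp, passed as higher.

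Along the pathway, Hmgcs1 (ENSMUSG00000093930), which makes HMG-CoA at its entry, had 94.2, 102.8 and 94.4 CPM in DMSO and 77.4, 73.2 and 72.3 CPM with BGJ398, a log2 fold change of −0.39 ± 0.07 (adjusted p = 0.0247). Fdps (ENSMUSG00000059743), the farnesyl diphosphate synthase that bone-directed bisphosphonates inhibit, had 117, 126 and 129 CPM in DMSO and 99.5, 89.9 and 97.7 CPM with BGJ398, a log2 fold change of −0.38 ± 0.06 (adjusted p = 0.016). The groups did not overlap in these genes. Of the 31-base sequences of Fdps, 27.9% also occur in other genes, so its counts are less certain.

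An enzyme of a later step fell too. Sqle (ENSMUSG00000022351), squalene epoxidase, had 117, 119 and 115 CPM in DMSO and 95.6, 95.3 and 93.8 CPM with BGJ398, and fell by 0.30 ± 0.05 on the log2 scale (adjusted p = 0.0208). Lss, lanosterol synthase, had −0.32 ± 0.07 and an adjusted p of 0.059. At the steps of Cyp51 and Ebp no fall was measured: Cyp51 had 0.00 ± 0.05, and Ebp, a sterol isomerase, was the 1 member with a value above 0, at 0.31 ± 0.07 (adjusted p = 0.0881).

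A gene that controls the pathway fell as well. Insig1 (ENSMUSG00000045294), which holds SREBP in the endoplasmic reticulum and is itself an SREBP target, had 83.4, 92.2 and 86.2 CPM in DMSO and 59.3, 62.6 and 66.2 CPM with BGJ398, a log2 fold change of −0.48 ± 0.07 (adjusted p = 0.0131). Srebf2, which encodes SREBP2, had −0.30 ± 0.07 (adjusted p = 0.0767) and Srebf1 −0.19 ± 0.08 (adjusted p = 0.513). Of the genes for fatty acids, Fasn had −0.10 ± 0.08, Acaca 0.00 ± 0.09, the desaturase gene Scd1 −0.24 ± 0.07 (adjusted p = 0.265) and Fads1 −0.20 ± 0.05 (adjusted p = 0.123).

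**Figure D2:**
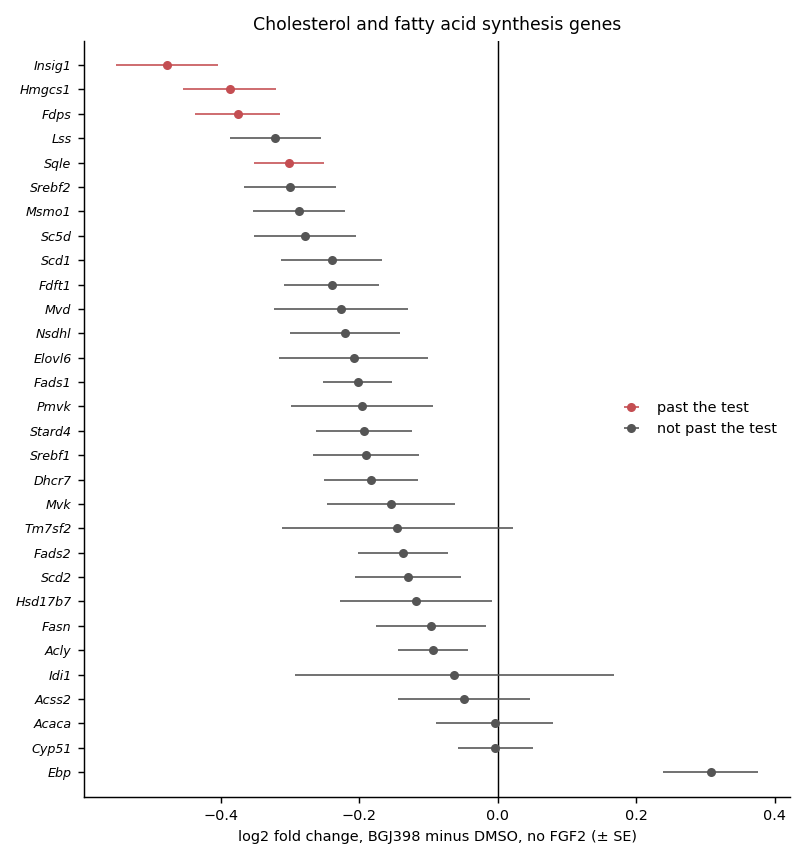
Log2 fold change of BGJ398 minus DMSO without FGF2 (horizontal axis, ± SE) for 30 of the 33 tested genes of cholesterol and fatty acid synthesis, ordered by value, with those past the test in red. The 4 red points, Insig1 to Sqle, lie between −0.48 and −0.30, and Ebp is the 1 gene above 0.

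The upstream sequences of Hmgcs1 and Insig1 are shown because SREBP2 acts on such promoters together with the CCAAT-binding factor NF-Y, and because both genes passed the test. They are the 250 bases before the annotated start (RefSeq, GRCm38.p6, plus strand), at chr13:119690101-119690350 for Hmgcs1 and chr5:28071162-28071411 for Insig1. Capitals mark matches to CCAAT on either strand (ATTGG on the other) and to TCACNCCAC on either strand, a form of the sterol regulatory element. No matches of these motifs overlapped.
Hmgcs1: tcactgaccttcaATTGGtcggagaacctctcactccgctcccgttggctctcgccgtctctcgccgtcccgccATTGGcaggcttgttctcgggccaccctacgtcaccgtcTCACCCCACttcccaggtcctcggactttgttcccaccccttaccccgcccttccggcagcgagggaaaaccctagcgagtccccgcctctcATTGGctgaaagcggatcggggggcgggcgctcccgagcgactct
Insig1: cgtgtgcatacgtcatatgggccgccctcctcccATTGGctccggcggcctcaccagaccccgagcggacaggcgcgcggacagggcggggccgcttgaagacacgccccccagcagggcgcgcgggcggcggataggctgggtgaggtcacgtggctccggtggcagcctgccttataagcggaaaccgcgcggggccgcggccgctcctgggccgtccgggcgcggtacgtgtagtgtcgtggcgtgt
TCACNCCAC matched once in Hmgcs1, from −137 to −129 relative to the start, and the sequence had 3 CCAAT matches, at −237, −176 and −45. Insig1 had 1 CCAAT match, at −216, and no TCACNCCAC match in this window. In windows of the same length TCACNCCAC occurred in 1.23% of the 9560 tested genes with a promoter entry and CCAAT in 41.4%. Of the 23 genes of the cholesterol and fatty acid list with an entry, 19 held CCAAT (82.6%) and 1 held TCACNCCAC. Of the 21 genes of the FGF and ERK list with an entry, 9 held CCAAT (42.9%). A match is a string of letters and not a measured binding site.

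Genes of bone formation rose in small number. Of 28 tested osteoblast genes 3 rose and 0 fell with BGJ398, against 0.159% and 0.191% of all genes, and the list's median was 0.08. In 8 of the 28 (28.6%) all BGJ398 libraries lay above all DMSO libraries, against 9.11% of all genes, and in 5 (17.9%) all lay below, against 8.08%. Alpl (ENSMUSG00000028766) encodes alkaline phosphatase, which supplies phosphate to growing mineral. It had 12.4, 11.8 and 11.9 CPM in DMSO and 17.7, 18.5 and 20.2 CPM with BGJ398, a log2 fold change of 0.65 ± 0.10, or 1.56-fold (adjusted p = 0.0131). Smpd3 (ENSMUSG00000031906), a sphingomyelinase required for bone mineralization in mice, had 2.58, 3.23 and 3.87 CPM in DMSO and 7.32, 5.89 and 6.42 CPM with BGJ398, and rose by 1.01 ± 0.19, or 2.02-fold (adjusted p = 0.0331). Pth1r (ENSMUSG00000032492), the receptor of parathyroid hormone, had 36.66, 32.57 and 30.96 CPM in DMSO and 50.04, 45.23 and 47.41 CPM with BGJ398, a log2 fold change of 0.51 ± 0.09 (adjusted p = 0.0302). The groups did not overlap in these 3 genes. Without BGJ398 replicate 1 the list had 1 call, as with counts rebuilt from TPM, and without each of the other 5 libraries it had 0. With DESeq2 4 rose, and without the 3 libraries that deviated together 4 rose and 2, Spp1 and Twist1, fell.

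Other bone genes did not pass the test. Runx2 had a log2 fold change of 0.00 ± 0.09 and Col1a1 one of 0.09 ± 0.09. Sp7, the osteoblast transcription factor osterix, had 0.28 ± 0.10 (adjusted p = 0.378) and Dlx5 −0.19 ± 0.09 (adjusted p = 0.611). Spp1, osteopontin, had −0.30 ± 0.08 (adjusted p = 0.223) with all BGJ398 libraries below all DMSO libraries. So did the osteocalcin genes, Bglap at −1.07 ± 0.40 (adjusted p = 0.45) from about 1 CPM in DMSO and Bglap2 at −0.43 ± 0.21 (adjusted p = 0.635). Of the 31-base sequences of Bglap, 62.9% also occur in other genes, so its counts are less certain. Enpp1, which makes the mineral inhibitor pyrophosphate, had −0.15 ± 0.09. Of 18 mineralization and phosphate genes, Alpl and Smpd3 were the 2 that passed. Without BGJ398 replicate 1 or with counts rebuilt from TPM Alpl was the 1 that passed, and without each of the other 5 libraries 0 did. Of 16 tested osteocyte genes 0 passed edgeR's test, and 0 passed with DESeq2 or limma-voom. At an unadjusted p under 0.05 there were 4 of the 16, against 7.93% of all genes, and 12 of 16 values were above 0. In 4 (25.0%) all BGJ398 libraries lay above all DMSO libraries, against 9.11% of all genes, and in 2 (12.5%) all lay below, against 8.08%. The early marker Pdpn had 0.06 ± 0.08.

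Of the secreted regulators of growth factor signalling, Igfbp5, Bmper and Fst rose. Igfbp5 (ENSMUSG00000026185), an IGF-binding protein abundant in bone, had 83.3, 80.7 and 79.4 CPM in DMSO and 129.9, 136.2 and 127.6 CPM with BGJ398, a log2 fold change of 0.69 ± 0.07, or 1.62-fold (adjusted p = 0.00084). It was the 1 of 18 tested IGF axis genes that passed, as it was without BGJ398 replicate 1. Igfbp2, at 0.58 ± 0.14 (adjusted p = 0.133), and Igf1, at 0.42 ± 0.12 (adjusted p = 0.237), did not pass.

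Of 29 BMP and TGF-beta pathway genes 2 rose and 0 fell, against 0.159% and 0.191% of all genes. Bmper (ENSMUSG00000031963), a secreted BMP-binding modulator, had 13.04, 13.07 and 11.96 CPM in DMSO and 18.6, 21.4 and 19.5 CPM with BGJ398, a log2 fold change of 0.64 ± 0.09 (adjusted p = 0.00456). Fst (ENSMUSG00000021765), follistatin, which binds activins, had 18.81, 20.04 and 15.36 CPM against 25.2, 24.1 and 26.2 CPM, a log2 fold change of 0.48 ± 0.09 (adjusted p = 0.0415). The activin subunit gene Inhba had 0.43 ± 0.09 (adjusted p = 0.0765). Leaving out any 1 of the 6 libraries left 1 call in this list, Bmper, and with counts rebuilt from TPM it had 0. With DESeq2 6 passed as higher and 1, Tgfbr3, as lower, and without the 3 libraries that deviated together 7 passed as higher and 3 as lower. Of 38 Wnt pathway genes Sfrp2 (ENSMUSG00000027996), a secreted Wnt antagonist, was the 1 that passed, also without BGJ398 replicate 1. It had 116.5, 114.6 and 115.1 CPM in DMSO and 85.5, 80.1 and 78.0 CPM with BGJ398, and fell by 0.51 ± 0.07 (adjusted p = 0.00432).

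Few matrix genes passed. Lox, which crosslinks collagen and elastin, had 423, 410 and 400 CPM in DMSO and 539, 530 and 546 CPM with BGJ398, a log2 fold change of 0.39 ± 0.06 (adjusted p = 0.0142). Thbs2, the matricellular protein thrombospondin 2, rose by 0.31 ± 0.06 (adjusted p = 0.0291), and Fndc1, a protein with fibronectin domains, by 0.63 ± 0.10 (adjusted p = 0.0131). Col6a5 had 0.50 ± 0.10 (adjusted p = 0.0446), but 0.11 with counts rebuilt from TPM. Without BGJ398 replicate 1, Lox and Fndc1 passed the test, and Thbs2 and Col6a5 did not. Lox lost the call in 5 of 15 other settings, without each DMSO replicate and without BGJ398 replicates 2 and 3. Fndc1 lost it in 6, the same settings and counts rebuilt from TPM. Thbs2 lost it in 8 and Col6a5 in 11. Of 11 fibrillar collagens 0 passed edgeR's test (0 with DESeq2 or limma-voom), with a median of 0.07. At an unadjusted p under 0.05 there was 1 of the 11, against 7.93% of all genes.

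**Figure D3:**
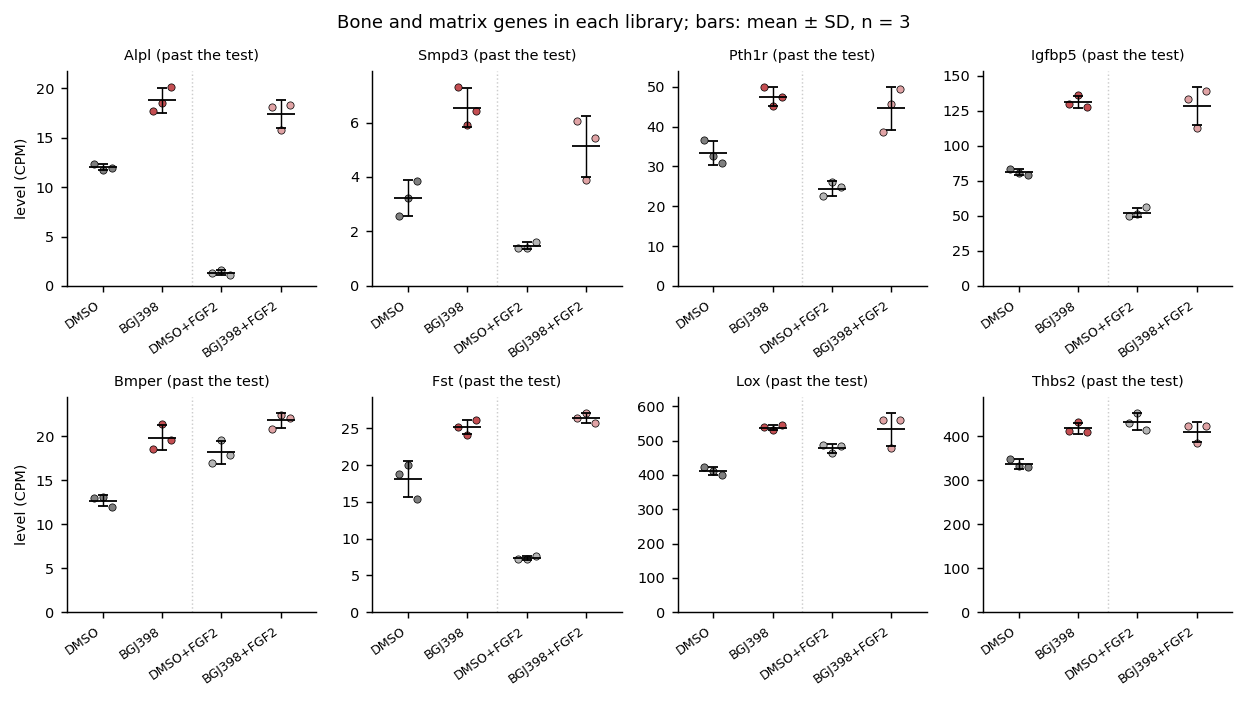
Levels in CPM (vertical axes, from 0) of 8 bone, growth factor and matrix genes past the test, in each library of the 4 groups, with the mean and SD of 3 libraries as bars. Without FGF2 (left of the dotted line) every BGJ398 point lies above every DMSO point; with FGF2 the DMSO libraries of Alpl lie at 1.09 to 1.58 CPM and the BGJ398 libraries at 15.8 to 18.3 CPM.

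Several of the smallest adjusted p lay outside these lists. Cd24a (ENSMUSG00000047139), a small surface glycoprotein, had the smallest adjusted p, 0.000337. It had 34.2, 34.7 and 34.6 CPM in DMSO and 50.9, 55.2 and 54.5 CPM with BGJ398, a log2 fold change of 0.63 ± 0.06. Prss35 (ENSMUSG00000033491), a secreted protein of the serine protease family, had 6.32, 6.39 and 5.04 CPM in DMSO and 10.7, 11.7 and 11.2 CPM with BGJ398, and rose by 0.92 ± 0.12, or 1.90-fold (adjusted p = 0.00432). Jade2 (ENSMUSG00000020387), a subunit of a histone acetyltransferase complex, had 47.8, 51.3 and 47.0 CPM against 35.3, 32.2 and 30.5 CPM, and fell by 0.58 ± 0.07 (adjusted p = 0.00247). Together with Igfbp5, and besides Gm10221, these are the 3 genes that passed under all 15 other settings.

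Other lower genes were Plekha6 (−0.67 ± 0.09), the peptidase gene Mme (−0.52 ± 0.10), the clock gene Per2 (−0.45 ± 0.09), Dpysl2 (−0.43 ± 0.08), Rapgef3 (−0.43 ± 0.08), the survival gene Bcl2 (−0.42 ± 0.07), the complement protease gene Masp1 (−0.33 ± 0.06), the cyclin gene Ccnd2 (−0.30 ± 0.06) and the phosphatase gene Ptpn9 (−0.30 ± 0.06). The remaining higher genes were Grb14 (0.48 ± 0.09), an adaptor that binds the insulin receptor, Plekhg4 (0.46 ± 0.09), the endocytic gene Ehd3 (0.42 ± 0.06), Nrep (0.41 ± 0.07), Aif1l (0.30 ± 0.06), the ETS factor gene Ets2 (0.28 ± 0.05) and the lipid phosphatase gene Fig4 (0.26 ± 0.05). Each of these lower and higher genes lost the call in at least 1 of the 15 other settings. The number ran from 2 settings for Plekha6 to 10 for Mme and Per2. Aif1l had 0.12 with counts rebuilt from TPM. Bcl2 was the 1 of 38 tested apoptosis and p53 genes that passed, and it did not pass without BGJ398 replicate 1. Gm10221, a processed pseudogene, had 0 reads in the 3 DMSO libraries and 51, 73 and 55 reads in the BGJ398 libraries, but 100% of its 31-base sequences occur in other genes, so its reads are uncertain and no fold is given.

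The same inhibitor was also compared with DMSO in the presence of added FGF2, in the other 6 libraries, which were part of the same model. There 2751 genes passed the test (21.9%), 10.7% of all genes as higher and 11.3% as lower. Of the 44 genes, 33 passed with FGF2 in the same direction (75% of the 44 and 1.20% of the 2751), 3 passed in the opposite direction and 8 did not pass. The BGJ398 effects with and without FGF2 themselves differed in 13 of the 44, against 4.3% of all genes. Since the 44 were chosen on one side of that difference, this share is a description.

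Of the 30 FGF and ERK genes, the effects with and without FGF2 differed past the test in 10 (Dusp4, Ier3, Fosl1, Fosl2, Myc, Ccnd1, Epha4, Hmga2, Errfi1 and Nr4a1), against 4.3% of all genes. For Etv5 and the Spred genes they were not shown to differ. Etv5 changed by −0.85 ± 0.10 with FGF2 and −0.68 ± 0.10 without, a difference of −0.17 (adjusted p = 0.591). Spred1 and Spred2 differed by 0.09 and −0.13 (adjusted p = 0.7 and 0.62). Of the 33 cholesterol and fatty acid genes, 0 differed past the test. With FGF2 11 of them fell and 1 rose, against 11.3% and 10.7% of all genes. Fdps changed by −0.38 ± 0.06 with FGF2, while Hmgcs1 had −0.07 ± 0.07 there, a difference of 0.32 with an adjusted p of 0.0781. Jade2, Cd24a and Prss35 changed by −0.56, 0.65 and 1.12 with FGF2, close to their values of −0.58, 0.63 and 0.92 without.

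Other genes did differ. Alpl rose by 3.71 ± 0.13 with FGF2 and 0.65 ± 0.10 without, a difference of 3.07 (adjusted p = 2.38e-07). FGF2 in DMSO, a comparison that shares the DMSO libraries with the main one and in which 13.5% of all genes passed the test, changed Alpl by −3.18 ± 0.13, so that its level was 1.32 CPM in DMSO+FGF2 against 12.02 CPM in DMSO, while it was 17.4 CPM in BGJ398+FGF2 and 18.8 CPM in BGJ398. Fst rose by 1.84 ± 0.10 with FGF2 and 0.48 ± 0.09 without (difference 1.36, adjusted p = 3.58e-05). Hmga2 fell by 1.67 ± 0.07 with FGF2 and 0.45 ± 0.08 without (difference −1.22, adjusted p = 1.23e-05). Its level was 64.9 CPM in DMSO+FGF2, 27.9 CPM in DMSO, 20.3 CPM in BGJ398+FGF2 and 20.5 CPM in BGJ398.

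The 3 genes with opposite changes were Sfrp2, Aif1l and Col6a5. Sfrp2 fell by 0.51 ± 0.07 without FGF2 and rose by 0.21 ± 0.07 with it (difference 0.72, adjusted p = 0.000463). Aif1l rose by 0.30 without FGF2 and changed by −0.32 with it, and Col6a5 by 0.50 and −0.45. In DMSO, FGF2 changed Sfrp2 by −0.63, Aif1l by 0.52 and Col6a5 by 0.84, again in a comparison that shares the DMSO libraries.

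**Figure D4:**
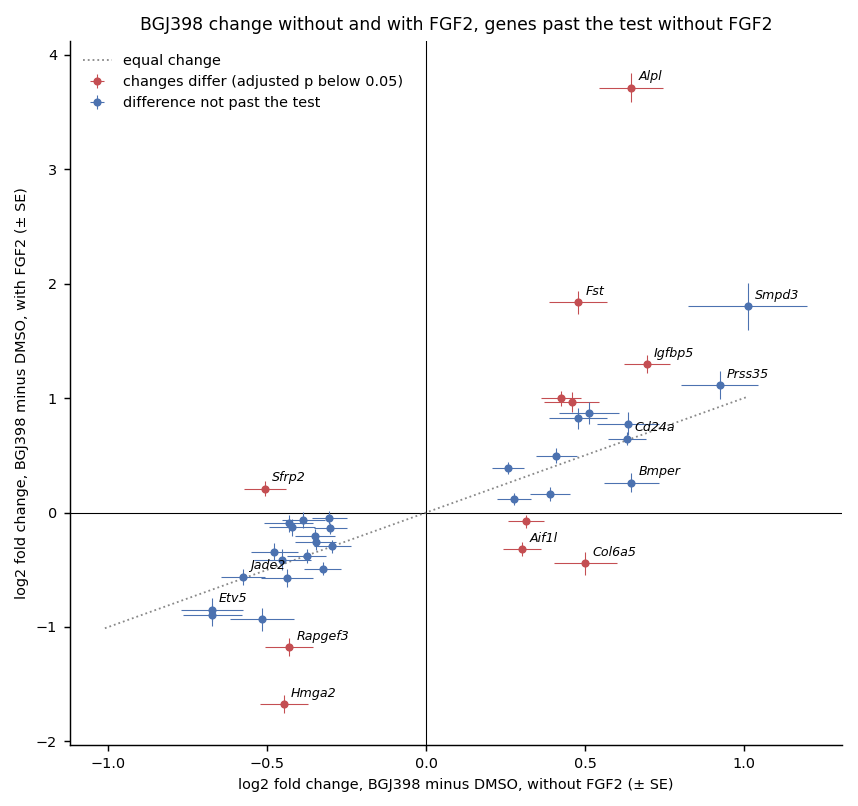
Log2 fold change of BGJ398 minus DMSO without FGF2 (horizontal axis) and with FGF2 (vertical axis), each ± SE, for 39 of the 44 genes past the test without FGF2, with the dotted line marking equal changes. Genes whose effects differ past the test are red, and Alpl, at 0.65 and 3.71, lies farthest from the line.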

How the data were processed

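Polyadenylated RNA of Ocy454 cells was sequenced in 12 libraries, 3 for each combination of BGJ398 or DMSO with FGF2 or control medium, and the 6 without FGF2 form the main comparison. Reads were quantified per transcript with Salmon against genome build GRCm39, per the submitters' processing notes. The version, trimming, library type and strand setting are not stated in the material used here, so reads of a gene and of an overlapping or antisense neighbour may be mixed. The deposited files hold, per the file headers, expected counts, TPM and effective lengths of 116178 transcripts. The expected counts are estimated by the authors' tool and not scaled, TPM are corrected for length and scaled within a library before deposit, and the deposited effective length is in bases.

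For testing, the expected counts of a gene's transcripts were added up and rounded. Genes were named by transcript identifier from GENCODE M21 (114656 transcripts matched), and reads of the others, 0.499% to 0.553% of the 6 libraries, were left out. No gene coordinates are given apart from RefSeq promoters, because that annotation is of another build. The test was the robust quasi-likelihood test of edgeR 4.0.16 in R 4.3.3, after filterByExpr and TMM scaling, in 1 model of all 12 libraries with a mean for each of the 4 groups (8 residual degrees of freedom), Benjamini-Hochberg adjustment over 12542 genes and a threshold of 0.05, 2-sided. The SE is the absolute log2 fold change divided by the square root of F. DESeq2 1.42.0 and limma 3.58.1 gave alternatives. The procedure was tested on simulated data.

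The comparison and the gene lists were chosen with earlier results of these data known. The text names genes by a rule: among protein-coding genes past the threshold with a mean of at least 5 CPM and libraries that do not overlap, the 12 largest rises, the 12 largest falls and the 6 smallest p in each direction; up to 4 called members of each list; list members given as not past the test; and a set of FGF, osteoblast and osteocyte genes. Other genes of the 44 are named to account for the calls. A few genes are not reported here, though they stay in the tests and counts. All 39 lists were counted, and the 28 without a call are described only where named.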

Additional observations from a re-analysis of the deposited data

Results flagged for a closer look

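The 20 genes given here were among those past the test or in the set of FGF, osteoblast and osteocyte genes. In each the BGJ398 effect with FGF2 differed from that without FGF2 by edgeR's test of the interaction (adjusted p under 0.05). Gm10221, with 0 reads in DMSO, and other members of the FGF and ERK list named above are left out. Values are the log2 effect with FGF2 minus that without. It was −1.30 for Spp1, −1.22 for Hmga2, −1.21 for Dusp4, −1.03 for Enpp1 and −0.95 for Col6a5. It was −0.74 for Rapgef3, −0.62 for Aif1l, −0.49 for Pdpn, −0.39 for Thbs2 and −0.37 for Fgfr1. In the other direction it was 0.51 for Plekhg4, 0.57 for Ehd3, 0.60 for Igfbp5, 0.65 for Col1a1, 0.72 for Sfrp2 and 0.79 for Fgfr2. It was 1.22 for Sp7, 1.35 for Dlx5, 1.36 for Fst and 3.07 for Alpl, the osteoblast phosphatase gene.

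Of these, Spp1, Dusp4, Enpp1, Pdpn, Fgfr1, Col1a1, Fgfr2, Sp7 and Dlx5 did not pass the test for BGJ398 without FGF2. Enpp1, which makes pyrophosphate, fell by 1.19 ± 0.08 with FGF2 and had −0.15 ± 0.09 without. Fgfr2 rose by 1.01 ± 0.07 with FGF2 and had 0.23 ± 0.07 without, and Fgfr1 had −0.46 ± 0.06 and −0.09 ± 0.06.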

How the results depend on the processing

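The count of 44 was 43 with the RLE scaling of DESeq2, 42 with limma-voom, 61 without a filter on low counts and 41 without robust estimation of the spread. It moved to 153 with DESeq2, 12 with length-scaled counts from TPM, 101 with only the 6 libraries in the fit, and 925 (349 higher, 576 lower) without BGJ398 replicate 1, DMSO+FGF2 replicate 2 and BGJ398+FGF2 replicate 2, a choice made after seeing the data. All 44 genes were among the 153, the 101 and the 925. Leaving out 1 library gave 9 to 29. The cause of these shifts was not tested. With FGF2 the count of 2751 moved to 1810 with length-scaled counts and 1805 with only the groups compared, and ranged from 1957 to 3368 with 1 library left out. The count of 539 differing effects moved to 825 with DESeq2, 348 with length-scaled counts and 1224 without those 3 libraries, with 329 to 989 for 1 library left out. For FGF2 in DMSO 1698 became 2772 without the 3 libraries, and 1035 to 1361 with 1 library left out. Leaving out 1 library keeps at least 2 in each group.

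Deviations of same-numbered DMSO and BGJ398 libraries correlated at −0.132, −0.0315 and −0.0639. Those of same-numbered DMSO+FGF2 and BGJ398+FGF2 libraries correlated at 0.0786, 0.239 and 0.0934. Over all same-numbered pairs the values ranged from −0.146 to 0.239. Whether a replicate number marks a shared day or culture cannot be told from these values. With a replicate block 23 genes passed, all among the 44. Of the 44, 39 lost the call in at least 1 of the 15 settings, 34 of them with length-scaled counts, and none changed direction. The depth limits the low genes: Spry4 rested on 95 reads and Etv1 on 141, and the log2 fold change of Etv1 went from −0.65 to 0.34 with length-scaled counts.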

Other observations

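Glycolytic and hypoxia-responsive genes, fixed as a list, had 0 of 36 members past edgeR's test without FGF2 (0 with limma-voom and 1 lower with DESeq2). At an unadjusted p under 0.05 there were 7 of the 36, against 7.93% of all genes. The list's median log2 fold change was −0.20, with 32 of 36 values below 0. In 9 all BGJ398 libraries lay below the DMSO libraries (25.0%, against 8.08% of all genes). Car9, a carbonic anhydrase induced by hypoxia, had 227, 241 and 198 CPM in DMSO and 178, 139 and 130 CPM with BGJ398, a log2 fold change of −0.58 ± 0.12 (adjusted p = 0.0757). Gapdh had −0.23 ± 0.12 and its groups overlapped. With FGF2 present, 26 of the 36 fell with BGJ398 and 1 rose, with a median of −0.50. Of all genes 11.3% fell and 10.7% rose there.

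Without FGF2, unfolded protein response genes had 0 of 26 past edgeR's test and a median of 0.01. At an unadjusted p under 0.05 there were 0, and 0 passed with DESeq2 or limma-voom. With FGF2, 15 were lower and 1 higher, against 11.3% and 10.7% of all genes. Proliferation genes had 0 of 43 past edgeR's test (0 with limma-voom and 1 lower with DESeq2) and a median of −0.05. At an unadjusted p under 0.05 there were 5 of the 43, against 7.93% of all genes. Of the 43 values, 34 were below 0, and in 9 genes (20.9%) all BGJ398 libraries lay below the DMSO libraries, against 8.08% of all genes. Padi2, an enzyme that turns arginine into citrulline in proteins, was just outside the threshold: it had 0.202, 0.327 and 0.430 CPM in DMSO and 1.01, 1.36 and 1.67 CPM with BGJ398, a log2 fold change of 2.03 ± 0.41 (adjusted p = 0.0515). The gene was chosen after its values were seen. Tnc, tenascin C, had 0.39 ± 0.08 (adjusted p = 0.0567) with no overlap between the groups.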
